A study of Homo sapiens with 6 samples.

Results

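Receptor tyrosine kinases outside the EGFR family were followed in Huh7SR cells, the sorafenib-resistant pool that the study's text calls Huh7-R. The list held 39 receptor genes, chosen by name, among them receptors that sorafenib inhibits. Of these, 18 were among the 16305 genes of the processed files and are described here. The other 21 were not analysed here, namely FGFR1, FGFR2, PDGFRA, KIT, CSF1R, KDR, FLT4, RET, ROR2, EPHA1, EPHA4, EPHA7, EPHB1, EPHB2, EPHB3, PTK7, TEK, TIE1, NTRK2, NTRK3 and ALK. The parental line, Huh7, comes from a human liver carcinoma, and the resistant pool was obtained by long exposure to sorafenib, which was removed from the medium for several days before experiments. Cells received fostamatinib, an oral inhibitor of spleen tyrosine kinase, or the solvent DMSO, for 24 h, with 3 samples in each group. The labels give 2 µM for both groups, so what this number means for DMSO is unclear. All 6 samples share the resistant background, and neither parental cells nor cells under sorafenib were part of the comparison.

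Receptor tyrosine kinases span the plasma membrane and bind a growth factor, a collagen, a Wnt protein or a ligand on a neighbouring cell. Most of them then pair up, phosphorylate each other on tyrosine and recruit adaptors that feed the RAS-ERK and PI3K-AKT pathways. In liver cancer cells the FGF, HGF and IGF receptors are well known growth signals, whereas the VEGF and PDGF receptors act mainly in the vessels and stroma around the tumour. RNA levels, as measured here, say how much transcript of a receptor was present and not how active its kinase was.

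The 6 libraries held 13303451 to 15272737 reads on the listed genes, and each of the 18 receptors had at least 10 reads in every sample. Chi-square per degree of freedom, which is 1 for pure counting noise, was 1.65 to 3.74 between replicates and 39.7 to 44.3 across the groups, and no sample stood apart from its group. Whether replicates came from separate cultures is not stated, so p-values measure the spread between these samples, which may be technical. The hepatocyte markers reported here, ALB, APOA1, APOB, TTR, SERPINA1, AFP and HNF4A, were all detected and all 7 rose, where 23.3% of all genes rose, with summed levels of 3508 to 3771 normalised counts (CPM) in DMSO and 4369 to 4652 CPM after fostamatinib. CPM scales a gene's reads to a common library size, after the authors' TMM factor.

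Between the groups, 14 of the 18 receptors passed limma's test at an adjusted p of 0.05, 8 higher and 6 lower after fostamatinib, where 47.8% of all genes were called, 23.3% higher and 24.5% lower. Among the 13287 genes with at least 10 reads in every sample, as all 18 receptors had, 7321 were called. Most of the receptor differences were small. Only 5 of the receptors were called with a difference of at least 0.5 on the log2 scale, 2 higher and 3 lower, against 19.0% of all genes, 9.33% higher and 9.68% lower. FLT1, EPHA2 and ROR1 fell, each by at least 2-fold, and FGFR3 and PDGFRB rose nearly 2-fold. In 15 of the 18 receptors the 3 fostamatinib samples all lay on one side of the 3 DMSO samples, 9 above and 6 below, as they did for 54.1% of all genes, 26.8% above and 27.4% below. This order gives a two-sided p of 0.10 in an exact permutation test, the smallest p that 3 samples against 3 allow. The median log2 fold change of the 18 receptors was 0.20, and that of all genes was 0.0015. In RNA from whole cultures, fewer cells making a transcript and less transcript per cell cannot be told apart.

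**Figure D1:**
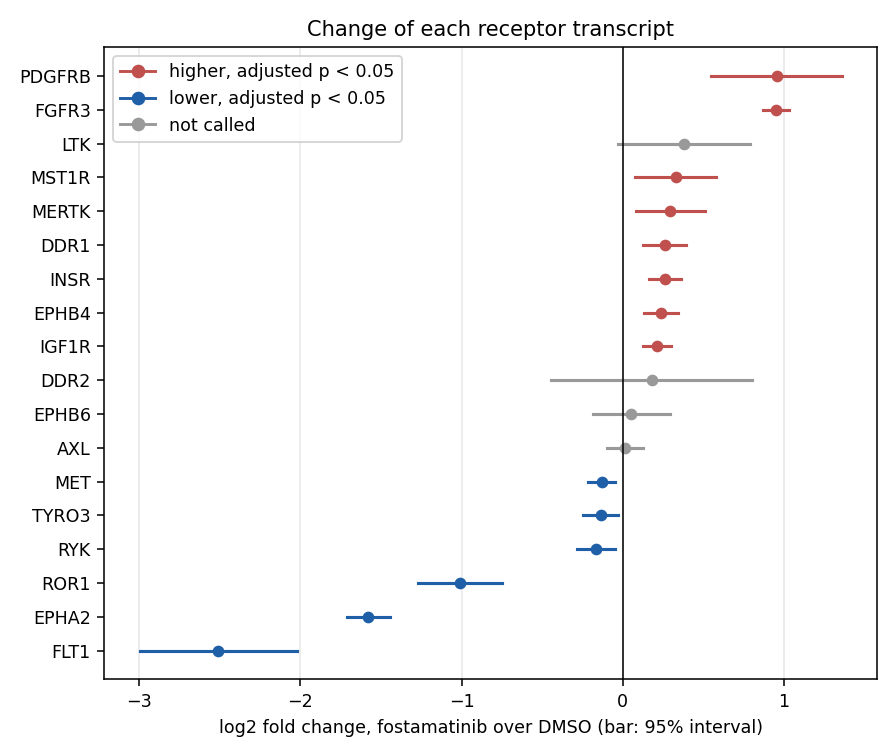
Log2 fold change (fostamatinib over DMSO) of the 18 receptors, with the 95% interval from limma as a bar, ordered by size; red marks receptors called higher, blue those called lower and grey those not called. FLT1, EPHA2 and ROR1 lie far to the left with -2.51, -1.58 and -1.01, FGFR3 and PDGFRB lie at 0.95 each, and the other 13 receptors lie between -0.17 and 0.38.

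Levels can be compared between receptors only roughly once they are divided by gene length. The length used joins the exons of all annotated transcripts, which understates genes with many of them. It was 10770 bases for TYRO3 and 4141 for EPHA2, so the order of receptors depends on it too. As CPM per kilobase of exon (RPKM), FGFR3, a receptor for fibroblast growth factors, had the highest level of the 18 receptors in DMSO, at 37.3 ± 1.72 (SD, n = 3). MET, the receptor for hepatocyte growth factor, followed at 30.4 ± 0.929 and EPHA2, an ephrin receptor, at 16.9 ± 1.17. AXL, IGF1R, EPHB4 and INSR came next, between 13.2 and 7.48 RPKM. The samples of INSR, RYK and TYRO3 overlapped one another, as did those of EPHB6 and ROR1 and those of FLT1 and PDGFRB. The order among these neighbours was therefore within their spread. DDR1, MERTK, EPHB6, ROR1 and MST1R held levels of 3.74 to 1.31 RPKM. LTK, FLT1, PDGFRB and DDR2 were the lowest of the 18, at 0.767, 0.365, 0.306 and 0.103 RPKM.

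After fostamatinib the upper part of this order changed mainly through EPHA2, whereas FGFR3 and MET kept ranks 1 and 2. FGFR3 reached 72.1 ± 1.34 RPKM and stood further above MET, at 27.7 ± 1.03. Its share of the summed RPKM of the 18 receptors went from 24.7% ± 1.06 to 40.8% ± 0.327 (SD, n = 3), although such a share also moves with every other receptor in the sum. EPHA2 went from rank 3 to rank 9 with 5.65 ± 0.271 RPKM, a share of 11.2% ± 0.671 in DMSO and 3.199% ± 0.218 after fostamatinib. The level of FLT1 passed from rank 16 to rank 18, below DDR2, although its DMSO samples overlapped those of PDGFRB at rank 17. The summed RPKM of the 18 receptors lay at 149.8 to 152.9 in the DMSO samples and at 172.8 to 179.7 in the fostamatinib samples, so the groups did not overlap. This higher sum came from FGFR3, for the other 17 receptors summed to 112.0 to 115.4 RPKM in DMSO and to a lower 102.2 to 107.0 RPKM after fostamatinib.

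**Figure D2:**
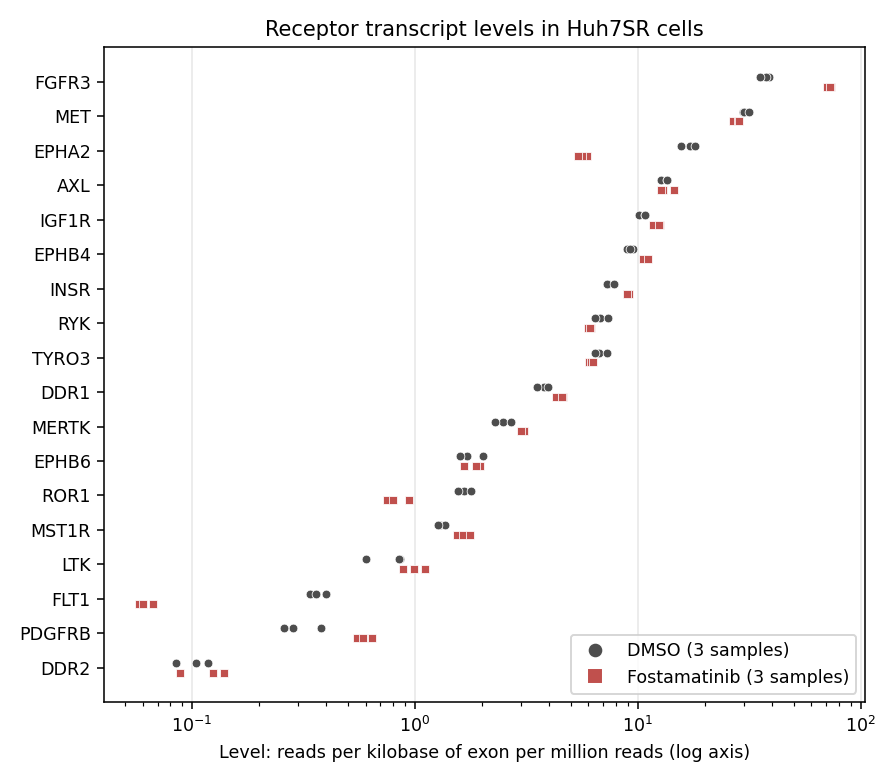
Level of each receptor in each of the 6 samples, in CPM per kilobase of exon (RPKM) on a log axis, with DMSO samples as grey circles and fostamatinib samples as red squares, ordered by the DMSO mean. FGFR3 and MET lead in both groups, whereas EPHA2 moves from 16.9 to 5.65 and FLT1 from 0.365 to 0.0616.

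The 5 receptors with the larger changes are shown first by the 250 bases before their transcription start. The windows are RefSeq sequences of build GRCh38.p14, in which all 18 receptors were matched. Capitals mark GC boxes (GGGCGG), the cyclic AMP response element (CRE, TGACGTCA) and the TATA box (TATAAA), searched on both strands.
FLT1 (fell; chr13:28495129-28495378, - strand): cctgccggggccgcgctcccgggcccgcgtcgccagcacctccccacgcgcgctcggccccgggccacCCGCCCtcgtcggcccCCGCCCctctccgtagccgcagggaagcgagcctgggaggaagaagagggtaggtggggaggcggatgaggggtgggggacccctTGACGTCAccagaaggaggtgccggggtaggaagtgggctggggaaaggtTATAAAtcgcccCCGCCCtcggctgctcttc
EPHA2 (fell; chr1:16156070-16156319, - strand): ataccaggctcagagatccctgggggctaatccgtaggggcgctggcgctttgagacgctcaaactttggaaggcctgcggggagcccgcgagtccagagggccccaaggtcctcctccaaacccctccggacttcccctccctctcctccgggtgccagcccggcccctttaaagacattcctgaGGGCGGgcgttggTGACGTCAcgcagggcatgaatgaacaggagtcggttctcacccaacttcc
ROR1 (fell; chr1:63773767-63774016, + strand): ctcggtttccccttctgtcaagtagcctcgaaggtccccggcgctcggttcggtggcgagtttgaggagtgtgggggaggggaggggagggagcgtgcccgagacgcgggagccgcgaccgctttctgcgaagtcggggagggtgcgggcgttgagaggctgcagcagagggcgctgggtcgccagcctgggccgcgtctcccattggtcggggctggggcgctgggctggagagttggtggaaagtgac
FGFR3 (rose; chr4:1793043-1793292, + strand): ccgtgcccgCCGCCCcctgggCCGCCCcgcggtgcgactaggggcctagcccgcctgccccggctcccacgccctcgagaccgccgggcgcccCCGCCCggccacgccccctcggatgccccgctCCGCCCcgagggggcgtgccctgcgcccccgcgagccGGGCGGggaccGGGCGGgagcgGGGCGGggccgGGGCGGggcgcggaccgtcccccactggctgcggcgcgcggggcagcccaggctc
PDGFRB (rose; chr5:150155846-150156095, - strand): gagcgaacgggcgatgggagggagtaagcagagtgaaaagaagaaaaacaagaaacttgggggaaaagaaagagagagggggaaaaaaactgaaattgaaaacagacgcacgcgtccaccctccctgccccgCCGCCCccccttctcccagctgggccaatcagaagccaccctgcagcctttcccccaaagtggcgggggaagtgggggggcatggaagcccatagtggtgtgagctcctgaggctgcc

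The full CRE occurred in 1.65% of 35116 promoter windows of this length. Among the 29 windows of the 18 receptors it occurred in 2, that of FLT1, at base -81 from the start, and that of EPHA2, at base -51. Both fell, whereas MET, TYRO3 and RYK, also called lower, held no CRE, and a part of the CRE in any fall was not tested. ROR1, the third that fell by at least 2-fold, held no match to any of the letters searched. The GC box, present in 42.6% of all windows, occurred 8 times before FGFR3, 3 times before FLT1, and once each before EPHA2 and PDGFRB. The FGFR3 window had 86.8% G and C and 40 CpG dinucleotides, against a median of 58.0% and 11 over all windows, whereas that of PDGFRB had 58.4% and 9. A TATA box stood 31 bases before the start of FLT1 and before no other of these 5 genes (10.7% of all windows). The AP-1 letters TGANTCA (6.57% of all windows), the ETS letters CCGGAAG (8.52%) and the E-box CACGTG (6.35%) were absent from the 5 windows. A match is a run of letters and not a measured binding site, and several receptors have other start sites.

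FLT1, which encodes VEGF receptor 1, had the largest change of the 18. FLT1 binds VEGFA, VEGFB and placental growth factor, is best known from endothelial cells, and is also made as a soluble form that traps its ligands, which reads per gene do not separate. The gene spans chr13:28874483-29069282 of GRCh37 (- strand). DMSO libraries gave 69, 65 and 67 reads, and treated libraries gave 10, 12 and 10. In normalised values these were 5.01, 4.26 and 4.51 CPM in DMSO, and 0.727, 0.842 and 0.755 CPM after fostamatinib. Every fostamatinib sample lay below every DMSO sample, with a gap between the groups many times wider than the spread within either. The fall was 5.70-fold, a log2 fold change of -2.51 (standard error, SE, 0.24, 95% interval -3.00 to -2.02, adjusted p = 6.14e-11, limma), and 53 of the 16305 genes had a lower log2 fold change.

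The ligands of FLT1 moved in different directions. PGF, placental growth factor, rose from 4.499, 4.72 and 4.51 CPM to 9.96, 9.96 and 10.3 CPM, or 1.14 on the log2 scale (SE 0.13, adjusted p = 3.81e-09). VEGFA, the main angiogenic factor, was far more abundant, at 181, 179 and 163 CPM in DMSO, and fell to 126, 130 and 134 CPM (log2 fold change -0.42, adjusted p = 1.29e-09). VEGFB rose by 0.33 on the log2 scale (adjusted p = 3.82e-04). The co-receptors NRP1 and NRP2, which bind VEGF together with its receptors, fell by 0.15 and 0.32 on the log2 scale (adjusted p = 0.00763 and 8.13e-06), and the NRP1 call was lost without a mean-variance trend (adjusted p = 0.0788). PTPRB, a receptor phosphatase known for acting on endothelial receptor kinases, fell from 7.47, 6.68 and 6.998 CPM to 1.599, 2.32 and 2.11 CPM (log2 fold change -1.81, adjusted p = 1.87e-10). The other 2 VEGF receptors of the list, KDR and FLT4, were not analysed here. Of 7 endothelial markers 2 were tested, and PECAM1 rose by 0.51 on the log2 scale whereas ESAM fell by 0.57. Their summed level was 19.2 to 21.0 CPM in DMSO and 16.9 to 19.6 CPM after fostamatinib, and the part of other cells in the FLT1 result was not tested.

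EPHA2, a receptor for ephrin-A ligands that is common in epithelial tumours, had the second largest change. It spans chr1:16450832-16482564 of GRCh37 (- strand). EPHA2 stood at 71.0, 74.3 and 64.7 CPM in the DMSO samples. After fostamatinib it stood at 24.6, 23.3 and 22.3 CPM. The highest treated sample was well under the lowest DMSO sample, and the fall was 2.99-fold, or a log2 fold change of -1.58 (standard error 0.065, 95% interval -1.71 to -1.45, adjusted p = 9.87e-21). With a mean of 1025 reads in DMSO and 322.0 after fostamatinib, this was the best covered of the 3 large falls.

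The ephrin-A ligands did not follow EPHA2 as a group. EFNA1, the ligand most often paired with EPHA2, was at 19.5, 20.1 and 20.6 CPM in DMSO and at 17.7, 16.7 and 18.1 CPM after fostamatinib, and it just missed the threshold (log2 fold change -0.20, adjusted p = 0.0506). EFNA1 passed without a mean-variance trend and with scaling by library size alone (adjusted p = 0.0349 and 0.0388). EFNA2 rose from 5.51, 5.37 and 5.58 CPM to 10.4, 8.77 and 9.81 CPM (log2 fold change 0.81, adjusted p = 2.11e-06). EFNA5 fell from 8.42, 10.1 and 10.2 CPM to 7.12, 6.81 and 5.66 CPM (log2 fold change -0.55, adjusted p = 5.47e-04). EFNA3 and EFNA4 had log2 fold changes of 0.047 and 0.17 and were not called.

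Among the other ephrin receptors, EPHB4, which pairs with ephrin-B2 between arteries and veins, rose slightly, from 57.7, 60.9 and 59.5 CPM to 71.0, 67.5 and 71.6 CPM. The log2 fold change was 0.24 (standard error 0.053, 95% interval 0.13 to 0.35, adjusted p = 3.14e-04). Its ligand EFNB2 was scarce and fell from 20, 17 and 25 reads to 7, 7 and 7 (log2 fold change -1.39, adjusted p = 0.00127). EPHB6, an ephrin receptor whose kinase domain is thought to be inactive, overlapped between the groups, with 8.48 to 10.7 CPM in DMSO and 8.87 to 10.5 CPM after fostamatinib. Its log2 fold change of 0.053 had a 95% interval of -0.19 to 0.29. EPHA5, which was not on the list, fell by 0.51 on the log2 scale (adjusted p = 4.65e-05).

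ROR1, an oncofetal receptor that binds Wnt5a and has a kinase domain with little or no activity, fell about 2-fold. The gene spans chr1:64239688-64647181 of GRCh37 (+ strand). ROR1 had 154, 183 and 155 reads in DMSO, equal to 11.2, 11.99 and 10.4 CPM. After fostamatinib it had 69, 76 and 84 reads, equal to 5.02, 5.33 and 6.34 CPM. The groups did not overlap, and the log2 fold change was -1.01 (standard error 0.13, 95% interval -1.27 to -0.75, adjusted p = 2.95e-08). RYK, another Wnt receptor with an inactive kinase domain, fell by only 0.17 on the log2 scale, from 55.0, 52.5 and 59.8 CPM to 48.6, 50.4 and 49.7 CPM (SE 0.059, adjusted p = 0.0178). The ligand WNT5A was not analysed here. LRP6, a Wnt co-receptor, rose by 0.28 on the log2 scale (adjusted p = 4.31e-05).

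**Figure D3:**
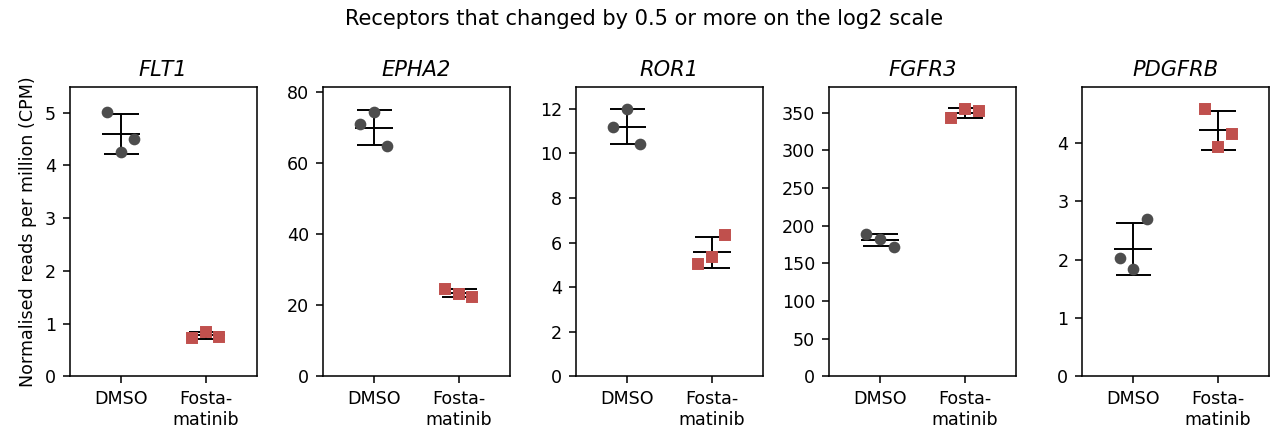
Normalised counts (CPM) of FLT1, EPHA2, ROR1, FGFR3 and PDGFRB in each of the 6 samples, each panel with its own axis from 0; points are samples, and bars give the mean and SD of 3 samples. In each panel the groups are apart, with means of 4.59 and 0.774 CPM for FLT1, 11.2 and 5.56 for ROR1, 181 and 350 for FGFR3, and 2.19 and 4.22 for PDGFRB, and samples of 64.7 to 74.3 and 22.3 to 24.6 CPM for EPHA2.

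FGFR3, which signals for growth and differentiation in response to fibroblast growth factors, rose to nearly double its DMSO level. It spans chr4:1795020-1810599 of GRCh37 (+ strand). The DMSO samples held 188, 182 and 172 CPM. The fostamatinib samples held 342, 354 and 352 CPM. Both groups were tight and far apart, and the rise was 1.93-fold, a log2 fold change of 0.95 (standard error 0.040, 95% interval 0.87 to 1.03, adjusted p = 1.84e-20). The mean went from 2643 to 4808 reads, the highest of the 18 receptors after fostamatinib.

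Other parts of the FGF system moved as well. FGFR4, the main FGF receptor of hepatocytes and not on the list, rose from 58.8, 60.0 and 58.5 CPM to 83.9, 81.5 and 85.3 CPM (log2 fold change 0.50, adjusted p = 2.92e-10). KLB, the co-receptor with which FGFR4 binds FGF19, rose from 29.3, 31.1 and 32.0 CPM to 75.2, 78.5 and 81.3 CPM, or 1.35 on the log2 scale (SE 0.059, adjusted p = 5.54e-20). FGFRL1, an FGF-binding receptor without a kinase domain, fell by 0.25 on the log2 scale (adjusted p = 2.27e-04), and KL fell by 0.67 from a mean of 28.7 reads (adjusted p = 0.0424), a call lost without DMSO replicate 1 or 3 or Fostamatinib replicate 1 or 2 (adjusted p = 0.137, 0.149, 0.128 and 0.0617) and with limma-voom on the recovered reads (adjusted p = 0.0545). FGF2, a ligand of many FGF receptors, fell from 49.4, 45.3 and 57.3 CPM to 27.8, 27.8 and 27.9 CPM (log2 fold change -0.86, adjusted p = 1.61e-12). FGF1, which binds every FGF receptor, fell from 7, 4 and 8 reads to 1, 3 and 0 (adjusted p = 0.0168). FGF18, a ligand of FGFR3, rose from 4, 1 and 4 reads to 12, 11 and 14 (adjusted p = 9.64e-04). Each met the read filter only in the group where it was higher, so its direction was partly fixed by the filter. Both calls were lost with 1 expected false positive. The FGF1 call was lost without DMSO replicate 1 or 3 or Fostamatinib replicate 3 (adjusted p = 0.072, 0.073 and 0.089), and without a mean-variance trend (adjusted p = 0.0672). FGF19 was not called, with means of 5.0 and 9.67 reads (adjusted p = 0.0784), but passed without that trend (adjusted p = 0.0155). FRS2, the adaptor that couples FGF receptors to RAS, rose by 0.21 on the log2 scale (adjusted p = 0.00846), with samples that overlapped between the groups and a call lost without DMSO replicate 2 or Fostamatinib replicate 3 (adjusted p = 0.0547 and 0.0733) or without the trend (adjusted p = 0.112), whereas FRS3 was not called (0.043). The heparan sulphate carriers GPC3, an oncofetal liver antigen, and SDC4 went opposite ways, with log2 fold changes of 0.63 (adjusted p = 1.88e-14) and -0.69 (adjusted p = 3.64e-17).

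PDGFRB, a receptor of pericytes and hepatic stellate cells and a target of sorafenib, was scarce but rose. The gene spans chr5:149493402-149535435 of GRCh37 (- strand). Its reads were 28, 28 and 40 in DMSO and 63, 56 and 55 after fostamatinib. These correspond to 2.03, 1.83 and 2.69 CPM in DMSO, and to 4.58, 3.93 and 4.15 CPM after fostamatinib. The groups were apart, although the third DMSO sample was closer to the treated samples than the others, and the log2 fold change was 0.95 with a standard error of 0.20 (95% interval 0.55 to 1.36, adjusted p = 1.41e-04). A rise above 0.5 on the log2 scale was not established for PDGFRB (adjusted p = 0.16 in limma's test against that size). Its ligand PDGFB fell from 8.85, 9.50 and 7.27 CPM to 5.89, 4.14 and 5.21 CPM (log2 fold change -0.75, adjusted p = 5.54e-05), and PDGFC fell by 0.82 (adjusted p = 1.06e-09). PDGFA and PDGFD had log2 fold changes of 0.11 and 0.14 and were not called, although PDGFD passed without DMSO replicate 3 (adjusted p = 0.0466). Of 8 fibroblast markers 5 were tested, PDGFRB among them, with a summed level of 297 to 305 CPM in DMSO and 308 to 311 CPM after fostamatinib. COL1A2 rose by 0.37 on the log2 scale and LUM fell by 0.40. COL1A1 and COL3A1 had log2 fold changes of 0.18 and 0.68 and were not called (adjusted p = 0.298 and 0.0833). The fostamatinib samples lay above all DMSO samples for 4 of the 5 markers and below for 1, LUM, against 26.8% and 27.4% of all genes. ACTA2, DCN and THY1 were not analysed here, and the part of such cells in the PDGFRB result was not tested. Of the 8 receptors listed as sorafenib targets, FLT1 and PDGFRB were the 2 analysed here, and they moved in opposite directions. FLT3, which is among the 8, was not on the list of 39 receptors.

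**Figure D4:**
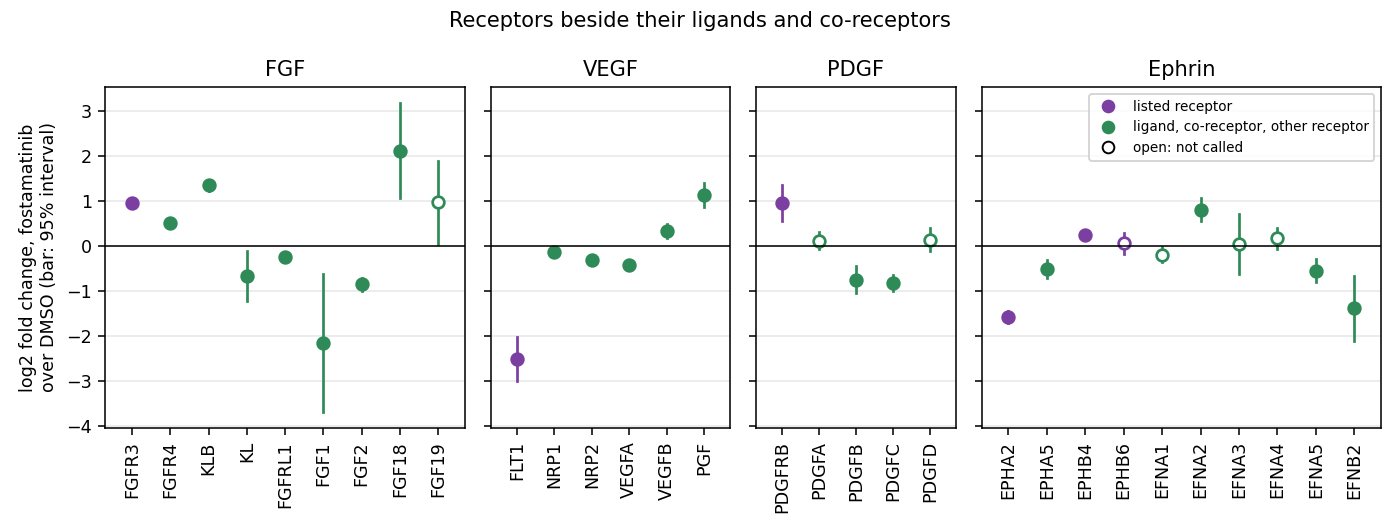
Log2 fold change (fostamatinib over DMSO) with its 95% interval for the listed receptors (purple) of the FGF, VEGF, PDGF and ephrin systems beside ligands, co-receptors and receptors not on the list (green); open circles were not called. FGFR3, FGFR4 and KLB lie above 0 while FGF2 lies at -0.86, and FLT1 lies at -2.51 while its ligand PGF lies at 1.14.

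AXL, MERTK and TYRO3 form the TAM family, which binds GAS6 and protein S and clears dying cells, and AXL is often linked to drug resistance. AXL did not differ detectably, with 65.3, 69.1 and 69.2 CPM in DMSO and 66.2, 64.9 and 74.9 CPM after fostamatinib. Its log2 fold change of 0.014 had a 95% interval of -0.10 to 0.13, so changes beyond about that size were outside the interval. MERTK rose by 0.30 on the log2 scale (adjusted p = 0.0188), from 10.3, 9.44 and 11.1 CPM to 12.8, 12.7 and 12.3 CPM. TYRO3 fell by 0.14 (adjusted p = 0.036), from 72.3, 78.6 and 69.1 CPM to 65.2, 66.6 and 68.0 CPM, with less than 2 CPM between the nearest samples of the groups. The TYRO3 call was lost in 5 of the 6 fits that left out a sample, with adjusted p-values of 0.0616 and 0.231 without DMSO replicates 1 and 2, and of 0.116, 0.0852 and 0.0522 without Fostamatinib replicates 1, 2 and 3. The MERTK call was lost without DMSO replicate 2 or Fostamatinib replicate 1 or 2 (adjusted p = 0.0934, 0.053 and 0.0522). The ligand PROS1 was not called (log2 fold change 0.041) except without DMSO replicate 3 (adjusted p = 0.0413), and GAS6 was not analysed here.

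MET, second in level among the 18 receptors, fell by 0.13 on the log2 scale, from 214, 217 and 227 CPM to 192, 204 and 206 CPM (SE 0.041, 95% interval -0.21 to -0.047, adjusted p = 0.00849). The groups were apart, but the fall was under 10% of the DMSO level. MST1R, the related receptor for macrophage-stimulating protein, rose from 6.82, 7.14 and 6.66 CPM to 8.07, 8.63 and 9.28 CPM (log2 fold change 0.33, standard error 0.12, adjusted p = 0.0269). The MST1R call was lost without DMSO replicate 1 or 3 (adjusted p = 0.0585 and 0.0607) and without Fostamatinib replicate 2 or 3 (adjusted p = 0.0594 and 0.112). Its ligand gene MST1 rose by 0.66 on the log2 scale (adjusted p = 1.74e-05), and HGF, the ligand of MET, was not analysed here. The calls of MET, TYRO3 and RYK were all lost without Fostamatinib replicate 1 (adjusted p = 0.0766, 0.116 and 0.0648) and without a mean-variance trend (adjusted p = 0.1, 0.141 and 0.0882), and that of RYK also without DMSO replicate 3 (adjusted p = 0.101).

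IGF1R and INSR, the receptors for insulin-like growth factors and insulin, both rose by a small amount. IGF1R rose from 142, 150 and 150 CPM to 162, 175 and 173 CPM (log2 fold change 0.21, standard error 0.044, adjusted p = 1.10e-04). INSR rose from 79.3, 78.8 and 85.0 CPM to 96.2, 98.4 and 96.4 CPM (log2 fold change 0.26, standard error 0.049, adjusted p = 3.21e-05). Of their docking proteins, IRS2 rose by 0.28 and IRS1 fell by 0.18 on the log2 scale (adjusted p = 4.70e-05 and 0.00254), and the IRS1 call was lost without a mean-variance trend (adjusted p = 0.0513). GRB10, an adaptor that dampens both receptors, fell by 0.27 (adjusted p = 3.01e-06). IGF2, the fetal ligand, was not called (log2 fold change -0.044, adjusted p = 0.541), and IGF1 and INS were not analysed here.

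DDR1 and DDR2 are receptors for collagen. DDR1, the epithelial form, rose from 34.4, 36.0 and 32.0 CPM to 39.0, 42.0 and 41.6 CPM (log2 fold change 0.26, standard error 0.065, adjusted p = 0.00114). DDR2, the mesenchymal form, had 14 to 20 reads in DMSO and 13 to 22 after fostamatinib, and a change was not detectable at this depth (log2 fold change 0.18, 95% interval -0.44 to 0.80). LTK, a relative of ALK, had 41, 32 and 44 reads in DMSO and 53, 49 and 41 after fostamatinib. Although its normalised values did not overlap, LTK was not called (log2 fold change 0.38, 95% interval -0.029 to 0.79, adjusted p = 0.121).

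The genes that feed and carry receptor signals were counted over whole lists. Of 60 ligand genes 34 were tested, and 7 were higher and 11 lower. Their median log2 fold change was -0.070, and 52.9% were called, against 47.8% of all genes. When the read filter had to be met in both groups, 15 of 28 ligands were called, and 7536 of 15126 genes. All 11 co-receptors tested of 17 listed were called, 5 higher and 6 lower, with a median of -0.15, where 23.3% of all genes were called higher and 24.5% lower. Of these calls, that of SDC2 rested on samples that overlapped between the groups, and it was lost without DMSO replicate 1 or Fostamatinib replicate 2 or 3 (adjusted p = 0.0838, 0.0561 and 0.0738) and without a mean-variance trend (adjusted p = 0.147). Among 29 adaptors and signal carriers tested of 34 listed, 8 were higher and 7 lower, with a median of 0.013, and the 51.7% called was near the share of all genes. DOK4, a docking protein, rose from 110, 126 and 120 CPM to 224, 235 and 226 CPM (log2 fold change 0.95, adjusted p = 1.02e-18), whereas its relative DOK3 fell by 1.07 (adjusted p = 2.48e-08). SOS1, which loads RAS with GTP, rose from 185, 177 and 205 CPM to 319, 344 and 339 CPM (log2 fold change 0.82, adjusted p = 2.12e-17). PIK3R3, a regulatory subunit of PI3K, rose by 0.80 (adjusted p = 7.41e-09).

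Genes that shut receptors down were counted in the same way. Of 26 attenuators (ubiquitin ligases, phosphatases, SOCS proteins, sheddases and sorting proteins) 25 were tested, and 3 were higher, 16 lower and 6 not called, with a median log2 fold change of -0.18. The 76.0% of attenuators called stood against 47.8% of all genes, and 24.5% of all genes were called lower. Among genes with at least 10 reads in every sample, 20 of 25 attenuators and 7321 of 13287 genes were called. SOCS3, which blocks cytokine receptors and is induced by STAT3, fell from 24.9, 26.5 and 25.2 CPM to 2.84, 3.16 and 3.55 CPM (log2 fold change -3.00, adjusted p = 2.65e-21). SOCS1 fell by 2.49 on the log2 scale (adjusted p = 6.41e-13). ERRFI1, a feedback inhibitor of receptor kinases of the EGFR family, fell from 563, 536 and 572 CPM to 306, 309 and 303 CPM (log2 fold change -0.86, adjusted p = 1.50e-20). CBL, the ubiquitin ligase that marks active receptors for degradation, fell by 0.18 (adjusted p = 0.00191), and CBLB was not called (0.11). The 3 called higher were RNF43, LRIG2 and STAM2, with log2 fold changes of 0.63, 0.35 and 0.19 (adjusted p = 9.00e-06, 3.63e-04 and 0.00746). HGS, a sorting protein, fell by 0.12 (adjusted p = 0.0291) with samples that overlapped between the groups. Its call was lost without DMSO replicate 1 or 2 or Fostamatinib replicate 2 (adjusted p = 0.11, 0.139 and 0.165) and without a mean-variance trend (adjusted p = 0.163). That of PTPN12 was lost without DMSO replicate 1 or Fostamatinib replicate 1 (adjusted p = 0.0519 and 0.106) and without the trend (adjusted p = 0.0734).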

How the data were processed

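RNA from 3 DMSO-treated and 3 fostamatinib-treated samples of Huh7SR cells was sequenced from poly(A)-selected, directional libraries. Alignment by the authors used HISAT and hg19, and counting used featureCounts with GENCODE genes. Kept genes had at least 5 reads in 2 or more samples of either group, and TMM normalization was applied. Tool versions and the strand setting of the counting are not given in the sources used here. The deposited values are log2 CPM, with 0.5 added to each count. One ribosomal RNA gene, listed 7 times with equal values, was used once.

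Models were fitted to the deposited log2 values of 16305 genes with limma 3.58.1 (lmFit, eBayes with trend) in R 4.3.3, with Benjamini-Hochberg adjustment over all genes and a threshold of 0.05. Fold changes are on the scale of log2 of the scaled count plus 0.5. The script was checked on simulated reads. Whole reads were recovered from every value (within 0.05 of a whole number) and gave the CPM, the reads per sample and, with exon lengths from GENCODE version 44 on GRCh37 (98.7% of genes matched), RPKM. The exon length joins all annotated transcripts and understates the level of genes with many of them. Overlapping genes on the opposite strand share 6.78% of the MST1R exon length, and at most 1.31% of that of any other receptor analysed.

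The members and gene lists were chosen with earlier results of these data known. All listed receptors are named. From each other list up to 4 genes with the largest called change and at least 50 reads were named by rule. The ligands of the 5 receptors with larger changes were also named by rule. Further ligands, co-receptors, adaptors, CBL genes, HGS, PTPN12, RNF43, LRIG2 and STAM2 were named after their values were seen. Alternatives were limma-voom on the recovered reads, no trend, robust eBayes, RLE or library size scaling, 2 reads added, 2 stricter filters, a replicate block, each sample left out, 1 expected false positive and limma's treat. A further hepatocyte marker was taken off the list after its values were seen, for a reason unrelated to them, and is not reported here. No count model was run.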

Additional observations from a re-analysis of the deposited data

How the results depend on the processing

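Of the 306 log2 fold changes of the 18 receptors under 17 alternatives, 271 kept the side of the threshold, 35 lost it and no called value changed sign. FLT1, EPHA2, ROR1 and FGFR3 were called under all 17, with log2 fold changes of -2.57 to -2.36, -1.63 to -1.53, -1.11 to -0.94 and 0.92 to 0.98, and adjusted p-values of at most 1.53e-04, 2.42e-04, 0.00209 and 3.43e-04 over the alternatives that test against no change with a Benjamini-Hochberg adjustment. PDGFRB ranged from 0.84 to 1.11 and lost its call only against a change of 0.5. In limma's treat test against 0.5 on the log2 scale, 1178 of all genes, 1 receptor higher and 3 lower, 6 ligands, 4 adaptors and 4 attenuators were called. With 1 expected false positive, 4136 genes, 4 receptors higher and 3 lower, 11 ligands, 10 adaptors and 11 attenuators were called. Without a mean-variance trend 6382 of all genes and 10 of 29 adaptors were called, the adaptors in place of 15. In that fit 3 receptors were called lower in place of 6. Leaving out 1 sample at a time gave 3 to 5 receptors lower, with 3 without Fostamatinib replicate 1, and 6 to 7 higher in place of 8. With a replicate block 7977 genes were called in place of 7794, with 8 receptors higher and 6 lower as without it. The shared replicate numbers are not known to pair samples, and deviations of same-numbered samples correlated at -0.019 to 0.028. Depth limits DDR2, LTK, PDGFRB and FLT1, each with a mean under 100 reads in both groups. A run without any filter was not made, since the files were filtered before deposit.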

Other observations

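Some ligands and co-receptors changed whose receptors were not analysed here. CSF1, the growth factor of macrophages that binds CSF1R, fell from 88.4, 95.01 and 86.3 CPM to 31.4, 28.4 and 28.1 CPM, a fall by 1.62 on the log2 scale (SE 0.060, adjusted p = 4.57e-22 in limma's test). KITLG, the ligand of KIT, fell by 0.37 on the log2 scale (adjusted p = 2.08e-04). GFRA1, the co-receptor through which GDNF reaches RET, fell from 13.9, 13.7 and 15.9 CPM to 5.597, 6.88 and 7.02 CPM (log2 fold change -1.16, adjusted p = 2.79e-10). GDF15, a stress hormone that signals through RET with another co-receptor, fell by 0.66 (adjusted p = 4.31e-11), and BDNF, the ligand of NTRK2, rose by 0.64 (adjusted p = 4.32e-05). All 5 were called genes, and their groups did not overlap, which was also so for 54.1% of all genes.

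Of 15 further receptor kinases 8 were tested, with 1 higher and 3 lower, or 4 of 8 called, where 47.8% of all genes were called. ROS1 fell from 39, 48 and 34 reads to 17, 16 and 23 (log2 fold change -1.01, adjusted p = 0.00101), and STYK1 fell by 0.54 (adjusted p = 2.44e-04). FGFR4, with a log2 fold change of 0.50, was the one that rose. Of 8 macrophage markers 2 were tested and neither was called, with summed levels of 9.76 to 11.1 CPM in DMSO and 9.60 to 11.6 CPM after fostamatinib.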
